A study of Mus musculus with 6 samples.

Results

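The 10 inflammasome and gasdermin genes were taken by symbol from a table of 54532 genes: the sensors Nlrp3, Nlrp6, Nlrc4 and Aim2, the adaptor Pycard, the caspases Casp1 and Casp4, and the gasdermins Gsdmd, Gsdmc2 and Gsdmc4. All 10 symbols were found, each in 1 row, and all 10 passed the filter on low counts that left 16861 genes. RNA was sequenced from mouse distal colon in 3 libraries with the genotype label Itgbl1 -/- (KO 1 to KO 3) and 3 with the label WT (WT 1 to WT 3), and the study compared these labels. All 6 carry 1 batch label. Both groups drank 3% dextran sulfate sodium (DSS, a chemical colitis model that damages the gut lining) for 7 days. No group without DSS is analysed here, the labels give no strain, sex or age, and they do not say how the knockout allele was made or whether it acts in all cells.

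An inflammasome is a protein platform in the cytosol that forms when a sensor meets a microbial or damage signal and, mostly through the adaptor ASC, gathers and activates caspase-1. Caspase-1 matures the cytokines IL-1 beta and IL-18 and cuts gasdermin D, whose freed part makes pores in the plasma membrane and causes pyroptosis, a lytic form of cell death. In the gut both epithelial cells and macrophages carry this machinery, with different sensors, and gasdermins of the C class are mainly epithelial in mice.

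Itgbl1 itself had 12, 4 and 10 reads across the KO libraries (values of single libraries run from 1 to 3 throughout) and 19, 6 and 5 reads across WT, so the counts did not bear out the knockout label, and KO and WT name labels here. Libraries totalled 13326970 to 18321389 counts. The mitochondrial share was 12.8% in KO 3, while the remaining 5 libraries held 3.53 to 4.88%. A list of 13 markers of colonic epithelium, none at 0 in any library, summed to 88.5 to 8985 CPM (counts scaled to library size) over the KO libraries, highest in KO 2 and lowest in KO 3, and to 18172 to 26363 CPM over the WT libraries, and all 13 had a negative log2 ratio. The 13 macrophage and monocyte markers summed to 1358 to 2639 CPM in the KO libraries and 1191 to 2909 CPM in the WT libraries, with 9 of 13 negative. In whole tissue, fewer cells of a type and less RNA per cell cannot be told apart.

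Most of the 10 genes were lower in the KO libraries, the gasdermin C genes and Nlrp6 by far the most, while Casp4 and Gsdmd overlapped between the labels and Nlrp3, also overlapping, had the higher mean in KO. The log2 ratio of KO over WT was negative for 9 genes and positive for Nlrp3, with a median of -1.94, beside a median of 0.06 over all 16861 genes. In 7 genes every KO library lay below every WT library, and in 0 every KO library lay above. Over all genes tested, the groups did not overlap in 17.3% with KO lower and in 15% with KO higher, 32.3% in all. None of the 10 passed the threshold of 0.05 after adjustment over all genes (edgeR quasi-likelihood test), nor did any of the 16861 genes, where percent called was 0. The same 7 genes had an unadjusted p under 0.05, all lower, against 12.3% of all genes lower and 11.8% higher, 24.1% in all.

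**Figure D1:**
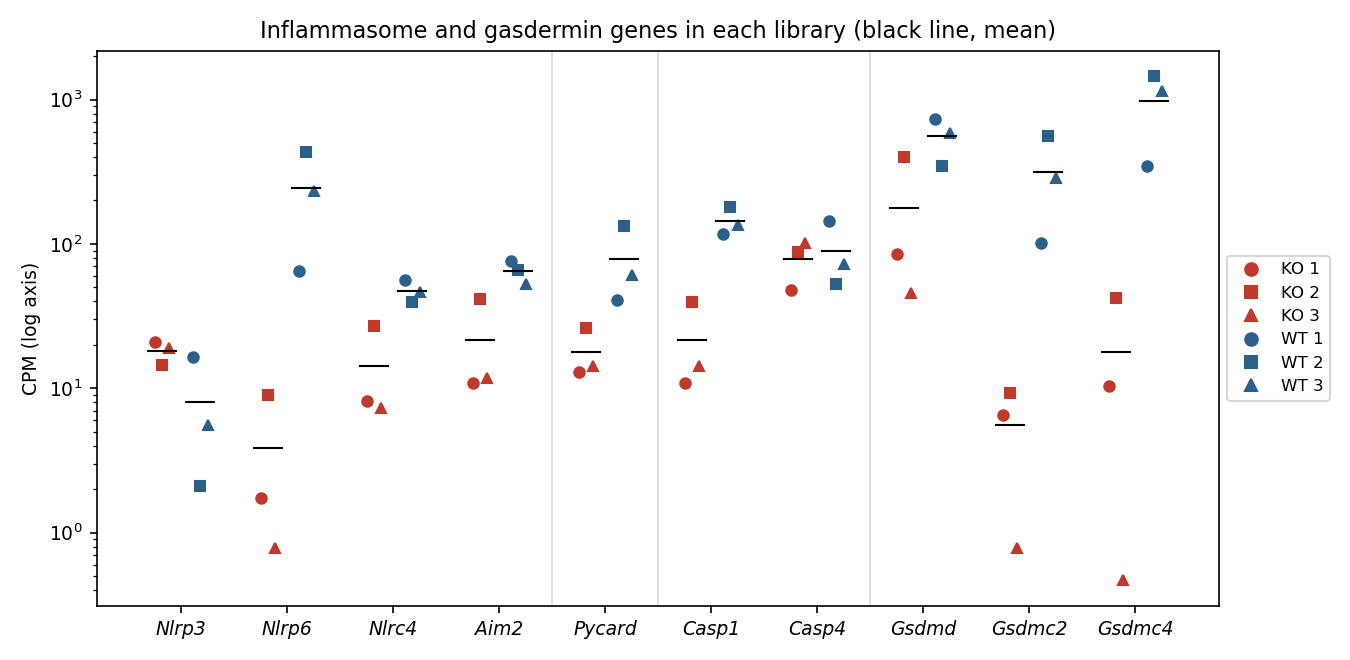
CPM of each gene on a log axis, with KO libraries in red left of WT libraries in blue and a black line at each group mean; grey lines part sensors, adaptor, caspases and gasdermins. Nlrp6, Gsdmc2 and Gsdmc4 show the widest gaps between the groups, KO 2 is the highest KO library in 8 of 10 genes, and the groups overlap in Nlrp3, Casp4 and Gsdmd.

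The number of genes called changed with KO 2 and with the test used. KO 2 was the highest KO library for 8 of the 10 genes, all but Nlrp3 and Casp4. Without KO 2, the edgeR test passed those 8 genes, all lower, with adjusted p-values of 0.0147 to 0.0418. In that fit 7.75% of all 17449 genes were called lower, and 460 genes higher. With all 6 libraries DESeq2 called 6 of them (Nlrp6, Nlrc4, Pycard, Casp1, Gsdmc2 and Gsdmc4), all lower, beside 8.08% of genes called lower and 5.48% higher. Limma-voom with quality weights called 7, all lower, with Aim2 and Gsdmd and without Pycard. It called 6.04% of all 16861 genes lower, and 376 genes higher.

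**Figure D2:**
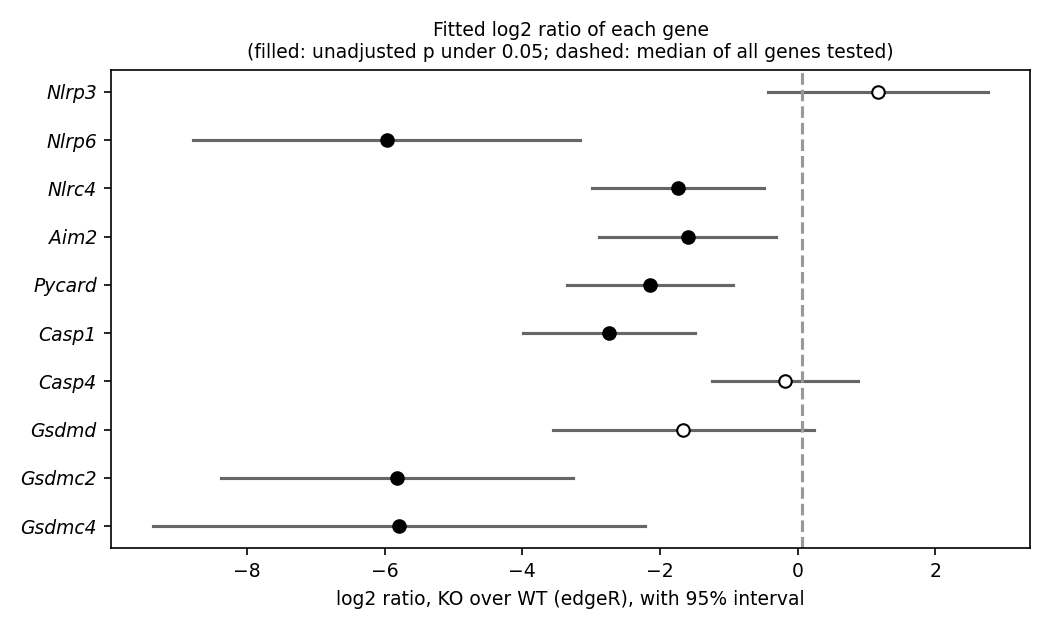
Fitted log2 ratio of KO over WT for each gene (points) with its 95% interval (lines) from the edgeR fit; filled points had an unadjusted p under 0.05, and the dashed line is the median of all genes tested, 0.06. The intervals of 7 genes lie wholly below 0, and those of Nlrp3, Casp4 and Gsdmd include it.

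Among the sensors, Nlrp6 showed the widest gap. Nlrp6 (ENSMUSG00000038745, GRCm38 chromosome 7, 140920902 to 140929192), a NOD-like receptor of intestinal epithelium that in mice has been tied to mucus release by goblet cells, was at 1.73, 9.04 and 0.777 CPM across the KO libraries, set against 65.0, 431 and 233 CPM across WT. The highest KO library reached 0.139 of the lowest WT library. The log2 ratio was -5.97 ± 1.19 (SE; unadjusted p = 0.00153, adjusted p = 0.094 by edgeR). The spread inside each label was also wide, 11.6-fold among KO libraries and 6.63-fold among WT libraries. A list of 8 goblet cell markers, all 8 with a negative log2 ratio, summed to 498, 13969 and 29.3 CPM across the KO libraries. Across WT they summed to 14913, 14094 and 13694 CPM, so KO 2 lay inside the WT range for these markers but not for Nlrp6. The part of goblet cells in the Nlrp6 values was not tested.

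Nlrc4 and Aim2 were lower by a smaller margin and were tight in the WT libraries. Nlrc4 (ENSMUSG00000039193, chromosome 17, 74425438 to 74459142), which forms an inflammasome with NAIP receptors that bind flagellin and bacterial secretion proteins, was at 8.20, 27.1 and 7.31 CPM across the KO libraries, set against 56.2, 39.7 and 46.4 CPM across WT. Its log2 ratio was -1.74 ± 0.53 (SE; adjusted p = 0.13). Aim2 (ENSMUSG00000037860, chromosome 1, 173350879 to 173466040), a sensor of double-stranded DNA in the cytosol, was at 10.9, 41.8 and 11.8 CPM across the KO libraries, set against 76.2, 65.5 and 53.1 CPM across WT, a log2 ratio of -1.59 ± 0.55 (SE; adjusted p = 0.151). For both genes KO 1 and KO 3 lay close together and KO 2 lay between them and the WT libraries. Without KO 2 the ratios were -2.66 for Nlrc4 and -2.56 for Aim2. The unadjusted p of Nlrc4 was 0.052 without KO 1, and that of Aim2 was 0.0716 without KO 1, 0.0694 without KO 3 and 0.0596 without WT 1 (edgeR). The Aim2 gene model shares 16817 bases with Cadm3 on the other strand, which had 1511, 259 and 548 reads across the KO libraries and 324, 288 and 456 across WT; whether counting used strand is unknown here, which leaves the reads of that stretch uncertain.

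Nlrp3 was the exception. Nlrp3 (ENSMUSG00000032691, chromosome 11, 59541568 to 59566956), the sensor of membrane damage and potassium loss that is best known from macrophages and neutrophils, was at 20.9, 14.6 and 19.0 CPM across the KO libraries, set against 16.6, 2.09 and 5.54 CPM across WT. WT 1 lay among the KO libraries, and WT 2 and WT 3 lay below all of them. The log2 ratio was 1.17 ± 0.68 (SE; adjusted p = 0.331), with a 95% interval of -0.43 to 2.77. It was 2.21 without WT 1 and 0.68 without WT 2. The WT libraries spread 7.94-fold and the KO libraries 1.43-fold. A list of 10 neutrophil markers summed to 1395, 1360 and 7464 CPM across the KO libraries and 552, 14.7 and 217 CPM across WT. Ngp was at 0 in at least 1 library. The order over the WT libraries was that of Nlrp3. In KO 3, however, the markers stood far above KO 1 while Nlrp3 did not. WT 1 lay below every KO library for the markers, but above KO 2 for Nlrp3. The part of neutrophils in the Nlrp3 values was not tested.

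Pycard (ENSMUSG00000030793, chromosome 7, 127989708 to 127993867), which encodes the adaptor ASC that links sensors to caspase-1, was at 12.9, 26.2 and 14.3 CPM across the KO libraries, set against 40.7, 134 and 60.7 CPM across WT. All KO libraries lay below all WT libraries, with KO 2 at 0.644 of WT 1. The log2 ratio was -2.14 ± 0.51 (SE; unadjusted p = 0.00393, adjusted p = 0.1).

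The caspases Casp1 and Casp4 are neighbours on chromosome 9 and had unlike ratios. Casp1 (ENSMUSG00000025888, 5298517 to 5307265), the inflammasome protease, was at 10.9, 39.8 and 14.3 CPM across the KO libraries, set against 117, 181 and 135 CPM across WT. The KO libraries stood well below the WT libraries, whose spread was 1.55-fold, and the log2 ratio was -2.74 ± 0.53 (SE; unadjusted p = 0.00119, adjusted p = 0.094). With no filter on low counts Casp1 was the 1 gene of the 10 that passed (adjusted p = 0.0485), beside 0.528% of genes called lower; over its alternatives the adjusted p ranged from 7.2e-05 to 0.319. Casp4 (ENSMUSG00000033538, 5308828 to 5336783), which encodes mouse caspase-11, the sensor of cytosolic lipopolysaccharide, was at 48.2, 87.3 and 101.6 CPM across the KO libraries, set against 145, 52.6 and 72.1 CPM across WT. The libraries of the 2 labels were mixed for Casp4, with both the highest and the second lowest value in the WT group. Its log2 ratio was -0.19 ± 0.45 (SE; adjusted p = 0.826) with a 95% interval of -1.24 to 0.87, and the sign turned to 0.08 without KO 1 and 0.32 without WT 1.

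The difference between these caspases also stood within libraries, where scaling between libraries plays no part. The log2 level of Casp4 minus that of Casp1 was 2.13, 1.13 and 2.82 across the KO libraries and 0.31, -1.78 and -0.91 across WT. Every KO library lay above every WT library, a mean difference of 2.82 (exact permutation p = 0.1, two-sided, the smallest that 3 against 3 allows). Nlrp3 relative to Casp1 was higher in KO by 4.55 and Nlrc4 and Aim2 by 0.96 and 1.07, again with no overlap. The gap was thin for Nlrc4, at -0.96 in KO 3 and -1.06 in WT 1. Casp1 itself had a log2 ratio of -2.74, so a gene of even level would also lie higher relative to it in KO. Nlrc4 and Aim2 had fallen, only less than Casp1, and the share of all genes on this measure was not counted. Nlrp6, Gsdmc2 and Gsdmc4 relative to Casp1 were lower in KO, with differences of -3.30, -3.11 and -4.09 and no overlap, while Pycard (0.92) and Gsdmd (0.74) overlapped. Gsdmc2 minus Casp1 was -0.73, -2.08 and -4.01 across the KO libraries and -0.20, 1.61 and 1.09 across WT, so KO 1 and WT 1 lay close together. Gsdmc4 minus Casp1 was -0.07, 0.09 and -4.62 across the KO libraries and 1.57, 3.00 and 3.08 across WT, and without KO 3 its difference was -2.54. Over the 9 genes compared with Casp1 the exact p ranged from 0.1 to 0.4 and the adjusted values from 0.129 to 0.4.

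**Figure D3:**
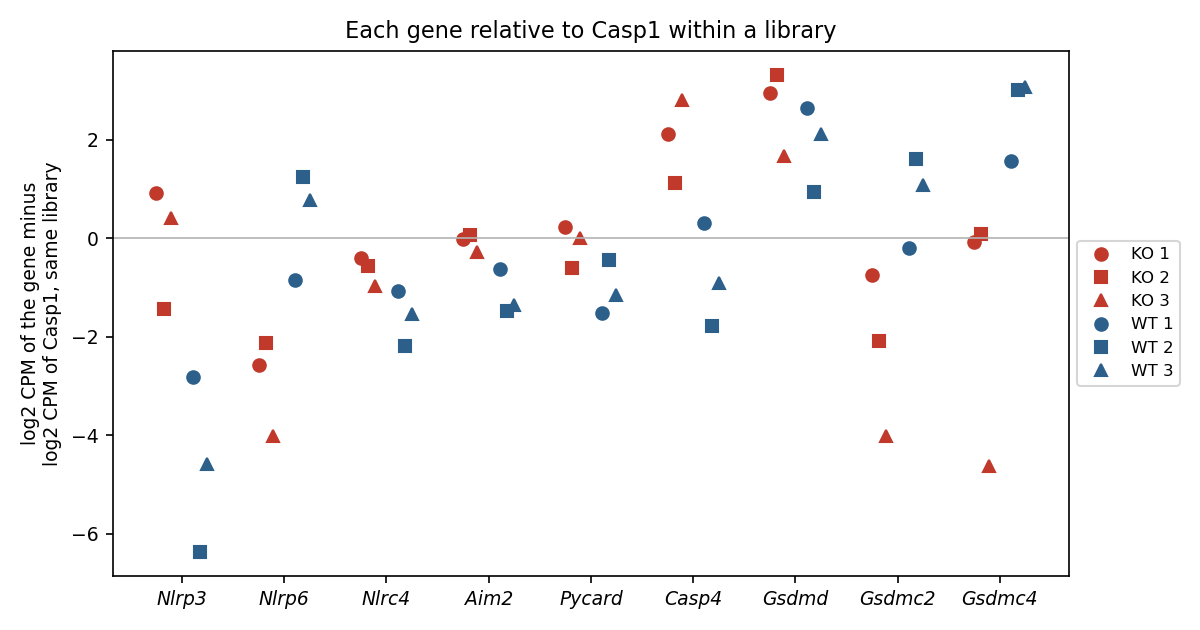
Log2 CPM of each gene minus log2 CPM of Casp1 in the same library, with KO libraries in red left of WT libraries in blue. Nlrp3 and Casp4 lie higher relative to Casp1 in every KO library than in any WT library, Nlrp6, Gsdmc2 and Gsdmc4 lie lower, and Pycard and Gsdmd overlap. Casp1 itself was lower in every KO library than in any WT library.

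The stretches before the RefSeq starts of Casp1 and Casp4 are shown because these adjacent genes differed in their values. Whether motifs there bear on the values was not tested. Of the 10 genes, 7 had a promoter in the RefSeq table (GRCm38.p6), and the 250 bases before each start were searched on both strands for 6 motifs. Capitals mark matches. The 120 bases before the start of each, both on the plus strand, are chr9:5298397-5298516 for Casp1 and chr9:5308729-5308848 for Casp4.
Casp1: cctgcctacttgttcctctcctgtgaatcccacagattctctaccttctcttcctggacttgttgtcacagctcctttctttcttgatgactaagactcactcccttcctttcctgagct
Casp4: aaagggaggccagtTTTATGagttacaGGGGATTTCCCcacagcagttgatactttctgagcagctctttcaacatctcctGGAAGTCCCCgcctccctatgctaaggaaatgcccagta
In Casp4 the capitals are the NF-kB consensus, in overlapping matches at 93 to 83 bases and again at 39 to 30 bases before the start, and a CDX2 motif (TTTATG). Casp1 held none of the 6 motifs in this window. The NF-kB consensus was found for 2 of the 7 genes, Casp4 and Nlrp3, and in 7.25% of all 32851 promoters. These percentages are over promoters, and a gene can have several. Another Nlrp3 stretch, chr11:59542436-59542685, held no match. An HNF4 motif (CAAAGTCC) stood before Nlrc4, and in 1.20% of promoters, and a PU.1 motif (GAGGAAGT) before Aim2 and Pycard, and in 2.44%. CDX2 was in 10.8% of promoters. The interferon-stimulated response element, GAAA and again GAAA with 2 free bases between (2.98% of promoters), and the STAT motif TTCNNNGAA (7.02%) were found for 0 of the 7.

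Gsdmd, whose protein is the pore former cut by caspase-1 and caspase-11, lay below all WT libraries in KO 1 and KO 3 but not in KO 2. Gsdmd (ENSMUSG00000022575, chromosome 15, 75862327 to 75867408) was at 84.8, 399 and 45.7 CPM across the KO libraries, set against 737, 349 and 588 CPM across WT. KO 2 lay above WT 2, so the groups overlapped. The log2 ratio was -1.66 ± 0.81 (SE; adjusted p = 0.258), and -3.15 without KO 2 (adjusted p = 0.0272).

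The gasdermin C genes held the widest differences beside Nlrp6. These genes are made by gut epithelium and, in mice, are induced there by type 2 cytokines during worm infection. Gsdmc4 (ENSMUSG00000055748, chromosome 15, 63891264 to 63912297) was at 10.4, 42.3 and 0.466 CPM across the KO libraries, set against 348, 1456 and 1144 CPM across WT. Per kb it was the most abundant of the 10 genes in WT 2 and WT 3, and KO 3 held 6 reads. Its log2 ratio was -5.79 ± 1.51 (SE; unadjusted p = 0.00645, adjusted p = 0.108), and KO libraries spread 90.7-fold. Gsdmc2 (ENSMUSG00000056293, chromosome 15, 63824346 to 63845177) was at 6.52, 9.32 and 0.777 CPM across the KO libraries, set against 102, 556 and 287 CPM across WT, a log2 ratio of -5.82 ± 1.08 (SE; unadjusted p = 0.00104, adjusted p = 0.094). The highest KO library stood at 0.121 of the lowest WT library for Gsdmc4 and at 0.0918 for Gsdmc2.

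Gsdmc2, Gsdmc3 and Gsdmc4 lie in a cluster of 7 Gsdmc genes spanning 150 kb (chr15:63775968-63925666) and are near copies, so their counts are uncertain one by one. The first 90 coding bases of each are shown for that reason (GENCODE M21, GRCm38, minus strand, chr15:63835854-63835943, chr15:63869208-63869297 and chr15:63902841-63902930), with capitals at the 2 positions where the 3 genes are not all alike.
Gsdmc2: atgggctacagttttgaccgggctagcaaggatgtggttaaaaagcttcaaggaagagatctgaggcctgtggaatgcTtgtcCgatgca
Gsdmc3: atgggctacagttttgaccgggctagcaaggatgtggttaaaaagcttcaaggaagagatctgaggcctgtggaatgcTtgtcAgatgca
Gsdmc4: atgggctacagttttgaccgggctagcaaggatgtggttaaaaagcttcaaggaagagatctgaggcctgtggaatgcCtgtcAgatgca
Over the coding sequence, Gsdmc2 was 97.1% identical to Gsdmc3 and 93.7% to Gsdmc4. Of all 100-base windows of the annotated transcripts, 28.6% of those of Gsdmc2 and 20.2% of those of Gsdmc4 also occurred without a mismatch in another Gsdmc gene. How the authors' counting treated reads that map to several genes is not given in the sources used here.

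Summing the 7 genes into 1 row avoids a split of reads among them, but would not restore reads left out for mapping to several genes. The sum was 19.1, 56.3 and 1.24 CPM across the KO libraries and 539, 2576 and 1685 CPM across WT. The highest KO library lay far below the lowest WT library, and the log2 ratio was -5.97 ± 1.41 (SE; unadjusted p = 0.00394, adjusted p = 0.101), near those of Gsdmc2 and Gsdmc4. The ratios of the other tested genes of the cluster were -8.22 for Gsdmc3, -6.67 for Gsdmcl2 and -4.43 for Gsdmcl-ps. Gsdmc3 had 5, 18 and 0 reads across the KO libraries and 558, 4519 and 1405 reads across WT. Gsdmcl2, another gene of the cluster, named after its values were seen, had 38, 47 and 0 reads across the KO libraries and 854, 4212 and 2716 across WT. Gsdmc had 0 reads in every KO library and 2, 9 and 0 across WT, and was not tested. In KO 3, 0 reads allow up to 0.233 CPM, the level of 3 counts, for counting error only.

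**Figure D4:**
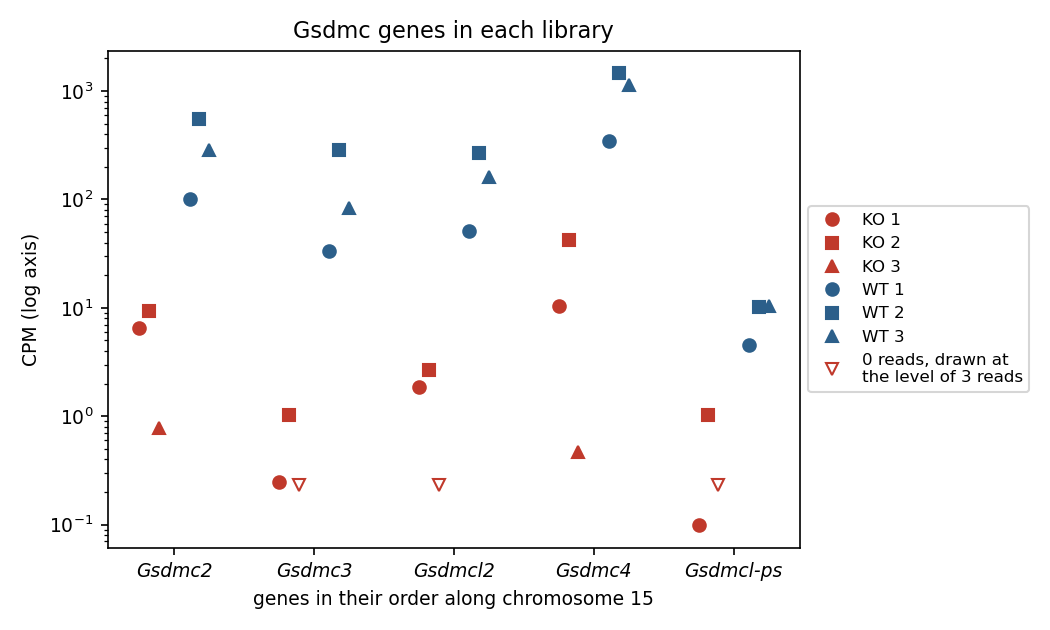
CPM on a log axis of the 5 tested genes of the Gsdmc cluster, in their order along chromosome 15, with KO libraries in red left of WT libraries in blue; open triangles mark 0 reads and stand at the level of 3 reads. In all 5 genes every KO library lies below every WT library, and WT 1 is the lowest WT library.

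Per kilobase of gene model the order of the levels differed between the labels. In the KO libraries Gsdmd led at 74.3 ± 81.6 CPM per kb (SD, n = 3), followed by Casp4 at 21.3 ± 7.45, Casp1 at 14.5 ± 10.5 and Gsdmc4 at 8.48 ± 10.5. Aim2 (6.14 ± 5.03), Pycard (4.68 ± 1.92), Nlrp3 (4.47 ± 0.798), Nlrc4 (3.00 ± 2.37), Gsdmc2 (2.39 ± 1.88) and Nlrp6 (0.757 ± 0.889) came next, in CPM per kb. No 2 neighbours in this order differed beyond their SDs. In the WT libraries Gsdmc4 led at 471 ± 274 CPM per kb (SD, n = 3), followed by Gsdmd at 235 ± 82.4, Gsdmc2 at 136 ± 98.7, Casp1 at 96.6 ± 22.2 and Nlrp6 at 47.8 ± 36.0. Casp4 (24.2 ± 13.1), Pycard (20.6 ± 12.9), Aim2 (18.6 ± 3.30), Nlrc4 (10.03 ± 1.75) and Nlrp3 (1.99 ± 1.87) completed it, and here the SD ranges of 2 of the 9 neighbouring pairs, Aim2 with Nlrc4 and Nlrc4 with Nlrp3, did not meet. Nlrp3 was thus the lowest of the 10 in all 3 WT libraries, and Nlrp6 the lowest in all 3 KO libraries.

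The 10 genes also parted into sets inside the WT label. Nlrp6, Pycard, Casp1, Gsdmc2 and Gsdmc4 were highest in WT 2 and lowest in WT 1. Nlrp3, Nlrc4, Aim2, Casp4 and Gsdmd were highest in WT 1, and 4 of these 5, all but Aim2, were lowest in WT 2. The summed epithelial markers were highest in WT 2 (26363 CPM) and lowest in WT 1 (18172 CPM), and the summed macrophage markers highest in WT 1 (2909 CPM) and lowest in WT 2 (1191 CPM). The summed neutrophil, T cell and dendritic cell markers had the same order over the WT libraries as the macrophage markers. Goblet cell markers did not follow the epithelial ones, being highest in WT 1 (14913 CPM) and lowest in WT 3 (13694 CPM). Fibroblast markers were highest in WT 3 and lowest in WT 2, and smooth muscle markers highest in WT 2 and lowest in WT 3. The share of all genes with each order was not counted, and the part of cell makeup in these values was not tested.

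Beside the mean of the epithelial markers in the same library, 1 gene was lower, 4 were higher and 5 overlapped. That mean was itself lower in KO, at 5.83, 8.50 and 1.79 log2 CPM, against 9.53, 10.04 and 9.66 across WT. A gene of even CPM would thus lie higher beside it in KO, and the share of all genes that did so was not counted. Higher is meant beside these markers only, as Nlrp3 alone had a positive log2 ratio of KO over WT. Gsdmc4 was lower than the markers in KO by a mean difference of -2.66 on the log2 scale, at -2.44, -3.10 and -2.56 across the KO libraries and -1.08, 0.47 and 0.50 across WT, with no overlap. Casp1 overlapped, at -2.36, -3.19 and 2.06 across the KO libraries and -2.65, -2.53 and -2.58 across WT. The WT libraries kept almost the same offset of Casp1 to these markers, and KO 3, where the markers were lowest, stood far above it. The Casp1 difference was 1.43 with all libraries and -0.19 without KO 3. Nlrp6 (-1.87), Gsdmc2 (-1.68), Nlrc4 (2.38) and Pycard (2.34) also overlapped. Nlrp3, Casp4, Aim2 and Gsdmd were higher relative to the markers in every KO library than in any WT library, by 5.97, 4.25, 2.50 and 2.17. Aim2 was at -2.37, -3.11 and 1.79 across the KO libraries and -3.27, -4.00 and -3.93 across WT, and KO 3 set much of the size of these means. Each library was also left out in turn, a check chosen after seeing the data. Without KO 3 the differences were 4.14 for Nlrp3, 2.24 for Casp4, 0.99 for Aim2, 1.04 for Gsdmd, 0.93 for Nlrc4 and 0.67 for Pycard. Those of Nlrp6 and Gsdmc2 were then -2.93 and -2.42, and that of Gsdmc4 -2.73. Without KO 2, that of Gsdmc2 was -0.77 and that of Nlrp6 -1.25. Relative to the mean of the macrophage markers, 8 genes were lower in KO with no overlap, and Nlrp3 and Casp4 overlapped. That mean overlapped between the labels, at 6.24, 6.80 and 5.39 log2 CPM in KO and 6.81, 5.57 and 6.16 in WT. For Pycard the gap was thin, with KO 3 at -1.54 and WT 1 at -1.46. The share of all genes lower on this measure was not counted either. The exact permutation p was 0.1 at the smallest in both comparisons, and the smallest values adjusted over the 10 genes were 0.2 for epithelium and 0.125 for macrophages.

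The genes with the most similar profile were sought among 14329 protein-coding genes with a mean of at least 1 CPM by the root mean square difference of centred log2 CPM over the 6 libraries. Those nearest to Casp1 were Pip5k1b, which encodes a phosphoinositide kinase, at a difference of 0.116, Dqx1 at 0.122 and Tbc1d2 at 0.131. Those nearest to Nlrp3 were Rasl11a (0.163), Csf3r, which encodes the G-CSF receptor of neutrophils (0.177), and Slc15a3 (0.222). Those nearest to Gsdmc4 lay farther off, at 0.428 for the water channel gene Aqp4, 0.456 for Hsd11b2, which encodes a steroid dehydrogenase, and 0.538 for the carboxylate transporter gene Slc13a2. In KO 3 Aqp4 and Slc13a2 were at 0 CPM, Hsd11b2 at 0.0777 CPM and Gsdmc4 at 0.466 CPM. The KO 3 part of these differences thus rests largely on the prior count of 2 in log2 CPM.

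The rest of the pathway was followed in a list of 42 genes, of which 39 were tested. Unadjusted p was under 0.05 for 13 lower and 4 higher genes, that is 33.3% and 10.3% of those tested, against 12.3% and 11.8% of all genes. The share of higher genes was thus near that of all genes, and 0 passed after adjustment. The median log2 ratio was -0.87, against 0.06 over all genes. The groups did not overlap in 15 lower and 4 higher genes, or 38.5% and 10.3% of those tested, against 17.3% and 15% of all genes.

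**Figure D5:**
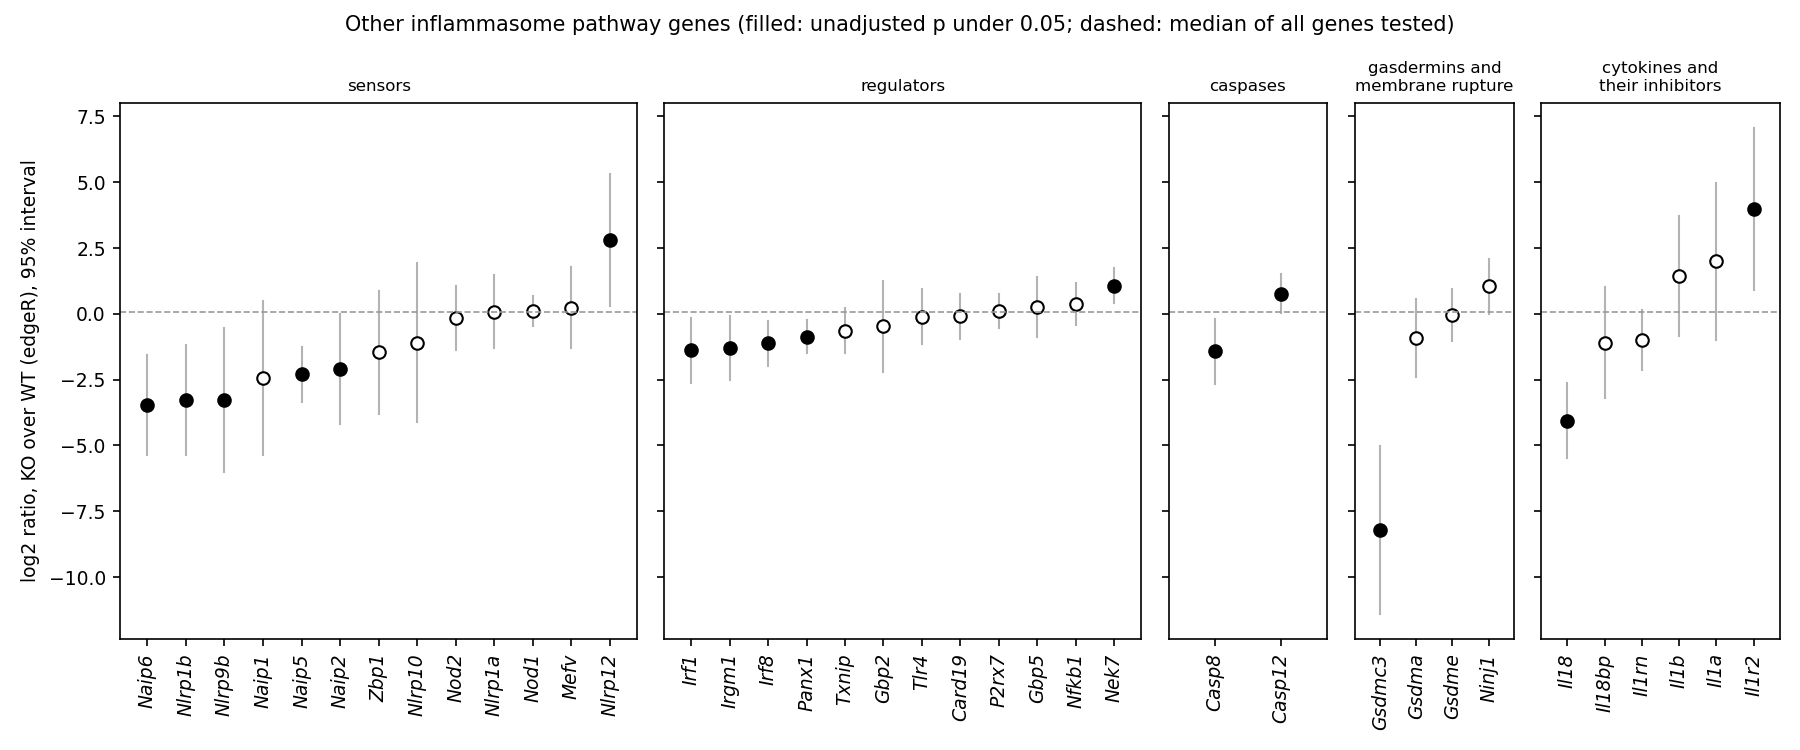
Log2 ratio of KO over WT (points) with 95% intervals (lines) for 37 of the 39 other inflammasome pathway genes tested, by class; filled points had an unadjusted p under 0.05 in the edgeR fit, and the dashed line is the median of all genes tested. Sensors spread from -3.46 for Naip6 to 2.81 for Nlrp12, and Gsdmc3 and Il18 lie lowest in their classes. Nlrp12, named after its values were seen, had few reads, 59, 32 and 54 across KO and 17, 0 and 4 across WT.

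Among 13 other sensors, 5 were lower and 1 higher at an unadjusted p under 0.05, beside 12.3% and 11.8% of all genes. Naip5 and Naip6 encode the flagellin receptors that act through NLRC4. Naip5 was at 7.36, 17.7 and 6.92 CPM across the KO libraries, set against 43.0, 68.5 and 46.5 CPM across WT, a log2 ratio of -2.30, and Naip6 had a ratio of -3.46. Naip genes are similar copies, so their split is uncertain. Nlrp1b, a sensor of bacterial proteases in mice, was at -3.27, and Nlrp9b, a sensor of viral RNA in mouse gut epithelium, was at -3.26. None passed after adjustment, with adjusted p-values of 0.094 to 0.161.

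Of 12 regulators, 4 had an unadjusted p under 0.05 with KO lower and 1 with KO higher (all genes, 12.3% and 11.8%). Nek7, a kinase that binds NLRP3 and is needed for its assembly, was at 194, 194 and 260 CPM across the KO libraries, set against 111, 83.0 and 114 CPM across WT. All KO libraries lay above all WT libraries, with a log2 ratio of 1.07 ± 0.28 (SE; adjusted p = 0.108). Panx1, a membrane channel gene, was at -0.87, and the transcription factor genes Irf8, which in mice drives Naip genes, and Irf1 were at -1.12 and -1.38.

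The 4 other caspases held 2 lower and 1 higher gene at an unadjusted p under 0.05, where all genes gave 12.3% and 11.8%. Casp8, the initiator of death receptor signalling, was at 45.2, 128 and 39.8 CPM across the KO libraries, set against 253, 129 and 191 CPM across WT. The groups did not overlap, though KO 2 lay close to WT 2, and the log2 ratio was -1.43 (adjusted p = 0.164). Casp12, which lies beyond Casp4 on chromosome 9, was at 44.2, 65.1 and 54.9 CPM across the KO libraries, set against 37.9, 20.7 and 37.9 CPM across WT. All KO libraries lay higher, with a log2 ratio of 0.77 (adjusted p = 0.194).

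Outside the C class, no gasdermin had an unadjusted p under 0.05. Gsdme, another pore former, was at 4.84, 8.12 and 9.40 CPM across the KO libraries, set against 4.93, 9.94 and 8.20 CPM across WT, with a log2 ratio of -0.05 and a 95% interval of -1.04 to 0.95. Gsdma, at 0.889 to 4.23 CPM in KO and 2.78 to 5.25 CPM in WT, had a ratio of -0.92, and both genes overlapped between the labels. Ninj1, which encodes the protein that ruptures the membrane after pyroptosis, was at 1.04 (adjusted p = 0.211). Gsdma2 and Gsdma3 were too low to test.

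Among 6 cytokine genes and their inhibitors, 1 was lower and 1 higher at an unadjusted p under 0.05 (12.3% and 11.8% of all genes). Il18, which encodes a cytokine that caspase-1 matures, was at 4.496, 7.89 and 1.87 CPM across the KO libraries, set against 55.2, 121 and 61.8 CPM across WT, with a log2 ratio of -4.05 (adjusted p = 0.094). Il1r2, the decoy receptor of IL-1, was at 78.6, 39.2 and 401 CPM across the KO libraries, set against 24.8, 1.20 and 6.49 CPM across WT, with a ratio of 3.996 (adjusted p = 0.141). The groups of both genes did not overlap. The IL-1 antagonist gene Il1rn was at -0.995 and Il1a at 1.99, and both overlapped between the labels. Il1b, named after its values were seen, was at 177, 360 and 286 CPM across the KO libraries, set against 244, 11.7 and 50.7 CPM across WT, with WT 1 inside the KO range and a log2 ratio of 1.43 (adjusted p = 0.398).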

How the data were processed

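Poly-A RNA of mouse distal colon was sequenced in 6 libraries of 3 labelled knockouts and 3 labelled wild types. Raw counts of each gene were deposited as whole numbers. Per the labels' protocols, the authors first removed adaptors and reads with poly-N or poor quality. The submitters' processing notes name, with no role, featureCounts 1.5.0-p3, DESeq2, HISAT2 2.0.5 and StringTie 1.3.3b, and the builds GRCm38 and mm10. Gene lengths, in bases, are those of the deposited table.

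The counts went through edgeR 4.0.16 under R 4.3.3: filterByExpr (minimum count 10, minimum total 15), TMM scaling and the quasi-likelihood F test (robust setting, no covariate), with Benjamini-Hochberg adjustment over 16861 genes. SEs were derived from the log2 ratio and its F statistic. CPM uses TMM-scaled library sizes, and log2 CPM a prior count of 2. Values relative to Casp1 or to marker means were tested by exact permutation, two-sided. Alternatives used limma 3.58.1 and DESeq2 1.42.0 on the same filtered genes, and motifs and alignments were made with Biopython 1.88. Intervals and floors cover counting or model error only.

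The 10 genes, the pathway list and the marker lists were chosen with earlier results of these data known. Named genes were the 10, up to 4 genes with the smallest p from each of 5 pathway classes, and the 3 nearest profiles of Casp1, Nlrp3 and Gsdmc4. Others, such as Nlrp12, Il1b and Gsdmcl2, were named after their values were seen. Values of 2 genes of the pathway list are not reported here, and the counts over that list include them. Other marker lists gave a median log2 ratio of -1.52 for 8 goblet cell, 4.17 for 10 neutrophil, -0.10 for 8 T cell, -0.41 for 6 dendritic cell, 0.92 for 6 fibroblast and -0.22 for 5 smooth muscle genes, beside -2.60 for epithelium and -0.30 for macrophages.

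The labels give replicate numbers but no separate animals, so the spread behind each p-value is that between these samples and may be technical. Libraries of 1 label were further apart than counting noise would put them (chi-square over its degrees of freedom, 50.7 to 253), so none was treated as a copy. The test was tried on simulated counts. With the spread of these libraries (16477 genes), 22 of 66 genes set to differ 8-fold were found, as were 2 of 67 at 4-fold and 0 of 67 at 2-fold, beside 1 false call. With dispersion set to 0.05 (16660 genes), the numbers found were 66 of 66, 66 of 67 and 36 of 67, beside 9 false calls.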

Additional observations from a re-analysis of the deposited data

How the results depend on the processing

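Signs of the 10 genes' log2 ratios were the same as in the analysis of all 6 libraries in 139 of 141 alternative values. The 141 include the ratio of the summed Gsdmc genes, -5.97, entered once for Gsdmc2 and once for Gsdmc4. The 2 values with the other sign were Casp4, at 0.08 without KO 1 and 0.32 without WT 1 (lowest -0.48, without WT 2). Their cause was not tested. Genes past the adjusted threshold numbered 192 of 30888 with no filter on low counts (1 of the 10, Casp1) and 2274 of 16777 with DESeq2 (6 of the 10). They numbered 1395 of 16861 with limma-voom and quality weights (7 of the 10) and 3 of 16861 with the replicate block (0 of the 10), against 0 of 16861 with edgeR. Leaving out 1 library at a time, they ranged from 0 to 1813, and those among the 10 from 0 to 8. The upper ends were without KO 2, where 17449 genes were tested. The median of the 10 ranged from -2.90 without KO 2 to -1.69 without KO 1, and 5 to 8 of the 10 were lower at an unadjusted p under 0.05. Of all genes, 7.71% (without WT 2) to 17.4% (without KO 2) were lower at that threshold in these fits, and 5.58% to 13.9% higher. The number of the 10 that were higher ranged from 0 to 1, with Nlrp3 higher without WT 1 (all genes, 9.45%). It was also 1 with limma-voom and quality weights (all genes, 12.9%) and 1 with the replicate block (9.06%). Without KO 3 and WT 2 together, chosen after seeing the data, the median was -1.50 and 5 were lower, beside 7.47% of all genes. At least 10 reads in every library left out Gsdmc4, which had 6 reads in KO 3. With upper-quartile scaling the median of all genes was 0.21, and genes with an unadjusted p under 0.05 were 10% lower and 15.9% higher. The replicate block rests on numbers that do not pair the samples: deviations of same-numbered libraries correlated at -0.20, 0.09 and -0.08, so the number is only a name. The depth of KO 3, 13326970 counts, allows up to 0.233 CPM at 0 reads.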
